A study of Sordaria macrospora with 14 samples.

Results

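The 48 genes described here are mycelium-high genes of Sordaria macrospora, whose RNA level was at least 4-fold lower in perithecia of every strain that was sampled in both tissues. They were chosen on counts-per-million (CPM, the raw count of a gene scaled to the total of its library). A member had a mean of at least 10 CPM in wild-type mycelium, and in each of Δasm2, ΔSMAC_03952 and the wild type its higher perithecial library lay at least 4-fold below its lower mycelial library. A summed count above 3 in Δspt3 mycelium was also required. Of 9869 gene models, 7382 reached the minimum in wild-type mycelium and 48 met the whole rule. The values that chose the members were those of perithecia and mycelium in these 3 strains, so the difference between the tissues is given below as a description, with no test.

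Sordaria macrospora is a self-fertile filamentous ascomycete. RNA-seq libraries came from perithecia of the deletion strains Δasm2 and ΔSMAC_03952 and of the wild type, and from sexual mycelium of the deletion strains Δspt3, Δasm2 and ΔSMAC_03952 and of the wild type. Each of these 7 groups had 2 libraries, which the labels describe as independent biological replicates, so 14 libraries entered in all. Cultures on corn meal medium were 6 d old and kept at 25 °C; mycelium came from liquid cultures, and perithecia were scraped off solid plates after 10 min in ethanol. The tissue therefore cannot be told apart from the form of culture and the way of harvest. The labels also speak once of microdissected RNA, although every sample is named as mycelium or perithecia. Perithecia of Δspt3 were not analysed here.

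Perithecia are the flask-shaped fruiting bodies of this group of fungi. They are built from hyphae that branch off the mycelium, and they enclose the asci in which ascospores form. Mycelium is the network of hyphae that takes up nutrients and carries the young fruiting bodies; Spt3 is the name of a subunit of the SAGA coactivator complex in Saccharomyces cerevisiae. No table used here pairs the locus tags of the members with names or products, so the genes are called by their tags and no function is given to them.

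Library totals ran from 6383079 to 24029990 counts, and all 48 members were among the 9499 gene models tested. SMAC_03952 itself stood at 49.5 and 40.8 CPM in perithecia of its deletion strain, against 163 and 205 CPM in wild-type perithecia, and at 20.8 and 23.4 CPM in its mycelium, against 247 and 230 CPM in wild-type mycelium. It was lower in both tissues (log2 fold change -2.12 in perithecia and -3.36 in mycelium, SE 0.23 and 0.24; edgeR's quasi-likelihood test, adjusted p = 5.26e-05 and 5.02e-05), but it was not without counts. The labels Δasm2 and Δspt3 were not checked in the same way, because no table used here gives the locus tags of asm2 and spt3.

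Perithecia held far less RNA of these genes than mycelium, but they were not without it. The 48 genes together took 0.367% and 0.323% of the counts of Δasm2 perithecia, 0.180% and 0.163% of ΔSMAC_03952 perithecia and 0.203% and 0.227% of wild-type perithecia. In mycelium they took 3.53% and 3.86% in Δasm2, 2.30% and 2.60% in ΔSMAC_03952 and 2.70% and 3.84% in the wild type. Δspt3 mycelium, whose level did not enter the rule beyond the small minimum, lay between the tissues with 1.5% and 1.38%. This is a sum and not a level common to the members. SMAC_12792 alone had 4632 and 3248 CPM in Δspt3 mycelium. With both Δspt3 libraries, 12 members lay below all perithecia, 7 between the tissues and 6 above all other mycelia. In bulk RNA of this kind, fewer cells that express a gene and less RNA of it per cell cannot be told apart.

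The members were low rather than silent in perithecia, so the word shut-down does not describe all of them. The median of the members' mean levels was 29.5 CPM in Δasm2 perithecia, 15.5 CPM in ΔSMAC_03952 perithecia and 20.6 CPM in wild-type perithecia, where the median of all gene models was 35.8, 37.2 and 35.9 CPM. In mycelium the members' medians were 324 CPM in Δasm2, 242 CPM in ΔSMAC_03952 and 229 CPM in the wild type, against 32.6, 31.0 and 33.4 CPM over all gene models. A mean of 10 CPM or more was still reached in perithecia by 34 members in Δasm2, 31 in ΔSMAC_03952 and 30 in the wild type. No member had a count of 0 in any library.

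**Figure D1:**
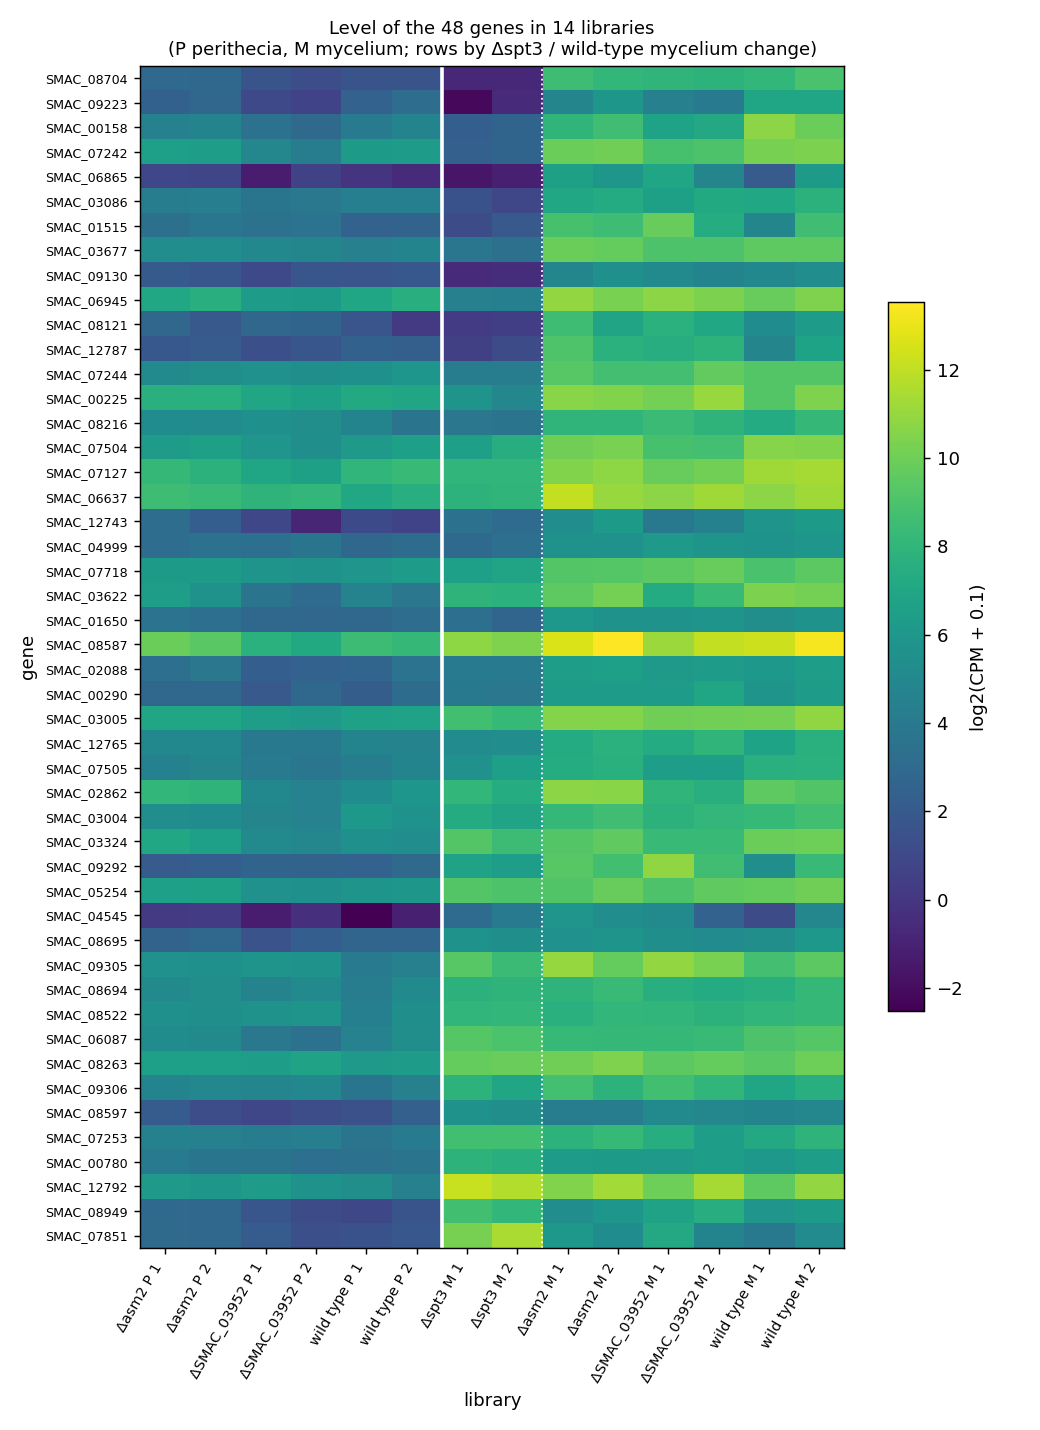
Level of each of the 48 genes (rows) in each of the 14 libraries (columns) as log2(CPM + 0.1), with perithecia left of the solid line, Δspt3 mycelium next and the other mycelia on the right; rows run from the strongest fall to the strongest rise in Δspt3 against wild-type mycelium. The perithecial columns are darker than the mycelial columns of the same strains in every row, which the rule fixed, while the Δspt3 columns change from darker than perithecia at the top to brighter than any mycelium at the bottom.

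The size of the difference between tissues varied widely among members and between strains. Mean perithecial levels lay below mean mycelial levels by 4.87-fold to 117-fold in Δasm2 (median 8.96-fold), 4.61-fold to 188-fold in ΔSMAC_03952 (median 14-fold) and 5.73-fold to 125-fold in the wild type (median 12.5-fold), written as mycelium over perithecia. A difference of 16-fold or more was seen for 10 members in Δasm2, 20 in ΔSMAC_03952 and 20 in the wild type. The strain in which a member came closest to the 4-fold limit was Δasm2 for 20 members, the wild type for 17 and ΔSMAC_03952 for 11. Over all genes tested, edgeR's quasi-likelihood test called 13.3% lower in perithecia in Δasm2, 19.4% in ΔSMAC_03952 and 13.3% in the wild type.

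SMAC_08704 had the strongest difference in its weakest strain. It stood at 7.61 and 6.91 CPM in Δasm2 perithecia, 2.98 and 2.31 CPM in ΔSMAC_03952 perithecia and 2.98 and 3.05 CPM in wild-type perithecia. Its mycelial levels were 381 and 281 CPM in Δasm2, 257 and 228 CPM in ΔSMAC_03952 and 272 and 480 CPM in the wild type, so its lowest mycelial library stood 36.9-fold above the highest perithecial library of the same strain, Δasm2. The next members by this measure were SMAC_09305 (17.8-fold), SMAC_03677 (17.0-fold), SMAC_12792 (13.1-fold), SMAC_08121 (12-fold) and SMAC_03005 (10.7-fold).

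At the other end, SMAC_00780 (4.12-fold, in Δasm2), SMAC_08522 (4.12-fold, in ΔSMAC_03952) and SMAC_00225 (4.08-fold, in the wild type) lay just inside the limit. SMAC_08329 (3.99-fold, in the wild type), SMAC_04913 (3.93-fold, in the wild type) and SMAC_01397 (3.85-fold, in Δasm2) lay just outside it. The last of these was among the most abundant mycelial genes, with 5790 and 7836 CPM in wild-type mycelium. The limit therefore passes through a continuous range: 83 genes would have qualified at a limit of 3-fold and 10 at a limit of 8-fold. SMAC_09247 and SMAC_12782 met every criterion except the minimum in Δspt3 mycelium, where they had summed counts of 3 and 0.

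Mean levels of the members in wild-type mycelium ran from 16.2 to 7592 CPM. SMAC_08587 was the most abundant member, with 4971 and 10212 CPM in wild-type mycelium; per kilobase of mRNA it also ranked first, with 14488 CPM per kb. It made up 9.73% to 30.7% of the members' counts in the mycelia of Δasm2, ΔSMAC_03952 and the wild type. The other 47 members together still took 2.08% to 2.89% of these mycelial libraries, against 0.148% to 0.271% of the perithecial ones.

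The next most abundant members in wild-type mycelium were SMAC_07127 (mean 2506 CPM), SMAC_06637 (2056 CPM), SMAC_07504 (1494 CPM), SMAC_03005 (1492 CPM), SMAC_00158 (1364 CPM), SMAC_12792 (1346 CPM), SMAC_03622 (1258 CPM) and SMAC_07242 (1257 CPM). The lowest was SMAC_04545, with a mean of 16.2 CPM. The mRNA of the members had a median length of 1710 bases (492 to 4984), against 2070 bases for the 7382 genes with at least 10 CPM.

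Wild-type mycelium replicates were further apart for these genes than for most others. Replicate 1 was the lower one for 43 of the 48 members (89.6%), against 42.6% of the genes with at least 10 CPM. The 4 members SMAC_01515, SMAC_04545, SMAC_06865 and SMAC_09292 differed at least 4-fold between the wild-type mycelial replicates, which 0.217% of those genes did. SMAC_06865, for example, had 4.12 and 73.5 CPM there, and SMAC_01515 had 28 and 387 CPM.

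The same 4 genes, with SMAC_07851, were also at least 4-fold apart between the ΔSMAC_03952 mycelial replicates, where 1.84% of genes were; there the first replicate was the higher one. SMAC_09292 had 1889 and 397 CPM in ΔSMAC_03952 mycelium, against 43.3 and 333 CPM in wild-type mycelium. In Δasm2 mycelium its values were 648 and 398 CPM, and no member was 4-fold apart in that group.

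In Δspt3 mycelium most of the mycelium-high genes were lower than in wild-type mycelium, while a few were higher than in any other library. A mean of 100 CPM or more was still reached there by 22 members, against 33 in wild-type mycelium. Against wild-type mycelium 32 members fell and 6 rose, and 10 did not pass the test (edgeR's quasi-likelihood test on counts, Benjamini-Hochberg adjusted p under 0.05 over all genes tested). This deletion moved much of the transcriptome: 59.3% of all genes tested were called, 30.2% of them lower and 29.1% higher. For the members the 2 directions were unequal, 32 to 6, and the median log2 fold change was -2.05, against -0.01 for all genes. A fall of at least 16-fold was fitted for 14 members and for 7.06% of all genes, and one of at least 4-fold for 25 members and for 16% of all genes. Wild-type mycelium has a minimum in the rule, and any gene chosen for a high level there can be lower elsewhere. Among the 7382 genes with the same minimum, 29% were called lower and 30% higher. Those genes share only the minimum and not the members' high level in wild-type mycelium (median 229 CPM, against 33.4 CPM over all gene models). How far the choice of members shaped the 32 to 6 was not tested.

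The strongest fall was that of SMAC_08704. Δspt3 mycelium held 0.489 and 0.499 CPM of it (15 counts over both libraries), against 272 and 480 CPM in wild-type mycelium. The log2 fold change was -9.37 (SE 0.43, adjusted p = 2.18e-08). Both Δspt3 libraries lay below every perithecial library as well, the lowest of which had 2.31 CPM. Fold changes come from scaled libraries and are therefore close to, but not equal to, ratios of the CPM values.

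SMAC_09223 had 0.122 and 0.570 CPM in Δspt3 mycelium, 10 counts in all, against 126 and 124 CPM in wild-type mycelium (log2 fold change -8.34, SE 0.53, adjusted p = 1.28e-07). SMAC_00158 had 4.70 and 6.27 CPM in Δspt3, against 1742 and 986 CPM in the wild type (-7.77, SE 0.40, adjusted p = 3.18e-08). SMAC_07242 had 5.07 and 6.13 CPM in Δspt3, against 1187 and 1327 CPM in the wild type (-7.63, SE 0.33, adjusted p = 2.18e-08). The groups did not overlap for any of these genes, and in each case the Δspt3 libraries were the lowest of all 14.

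Among the most abundant members, SMAC_08587 had 1783 and 1356 CPM in Δspt3 mycelium, against 4971 and 10212 CPM in wild-type mycelium (log2 fold change -2.08, SE 0.50, adjusted p = 0.00324). SMAC_06637 had 236 and 250 CPM in Δspt3, against 1709 and 2402 CPM in the wild type (-2.90). SMAC_07127 had 260 and 264 CPM in Δspt3, against 2385 and 2627 CPM in the wild type (-3.07). These 3 genes fell by less than the genes above, and for SMAC_06637 and SMAC_07127 the Δspt3 levels were inside the range of the perithecia.

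**Figure D2:**
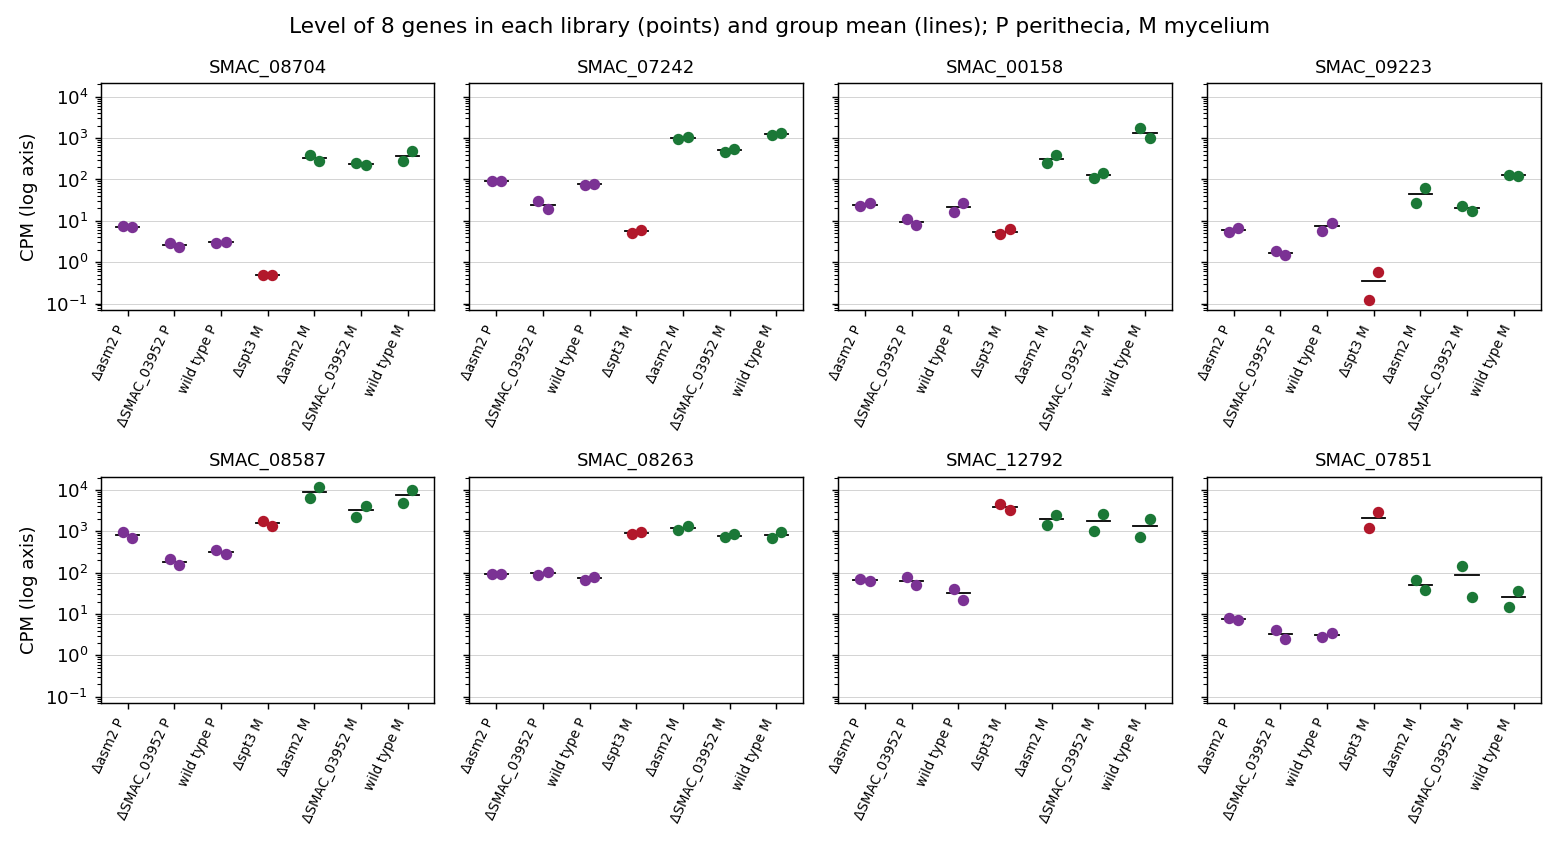
Level in CPM, on a log axis, of 8 members in each library (points) with the mean of each group (lines); perithecia are purple, Δspt3 mycelium is red and the other mycelia are green. In the top row the Δspt3 points of 4 genes lie below all perithecia; in the bottom row SMAC_08587 lies between the tissues, SMAC_08263 stays among the mycelia, and SMAC_12792 and SMAC_07851 lie above every other library.

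The 6 members that rose in Δspt3 mycelium lay there above all 6 mycelial libraries of the other strains. SMAC_07851 had 1218 and 2901 CPM in Δspt3 mycelium, against 15.1 and 36.4 CPM in wild-type mycelium (log2 fold change 6.45, SE 0.79, adjusted p = 2.31e-05). SMAC_08949 had 415 and 279 CPM in Δspt3, against 56.3 and 75.3 CPM in the wild type (2.61, SE 0.36, adjusted p = 6.14e-05). SMAC_00780 had 233 and 185 CPM in Δspt3, against 66.5 and 85.6 CPM in the wild type (1.66, SE 0.28, adjusted p = 2.51e-04). The remaining rises, of SMAC_07253 (1.29) and SMAC_08597 (0.94), were smaller, and neither was called without wild-type mycelium replicate 1.

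SMAC_12792 was the member with the highest level in Δspt3 mycelium. It had 4632 and 3248 CPM there, against 743 and 1948 CPM in wild-type mycelium (log2 fold change 1.75, SE 0.59, adjusted p = 0.0214). The call rested on single libraries: the adjusted p was 0.187 without wild-type mycelium replicate 1 and 0.136 without Δspt3 replicate 1, and over all alternatives it ran from 0.00319 to 0.187.

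In Δspt3 mycelium 10 members did not pass the test, and 7 of these had both Δspt3 libraries inside the range of the other mycelia. SMAC_08263 had 848 and 947 CPM in Δspt3, against 674 and 992 CPM in the wild type (log2 fold change 0.29, SE 0.25). SMAC_08522 had 260 and 275 CPM in Δspt3, against 263 and 284 CPM in the wild type (0.16, SE 0.25). The replicates of SMAC_09292 and SMAC_04545 spread widely in wild-type mycelium, and their log2 fold changes of -0.79 and -0.24 had SEs of 0.76 and 0.90, so a change of moderate size was not detectable for them.

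**Figure D3:**
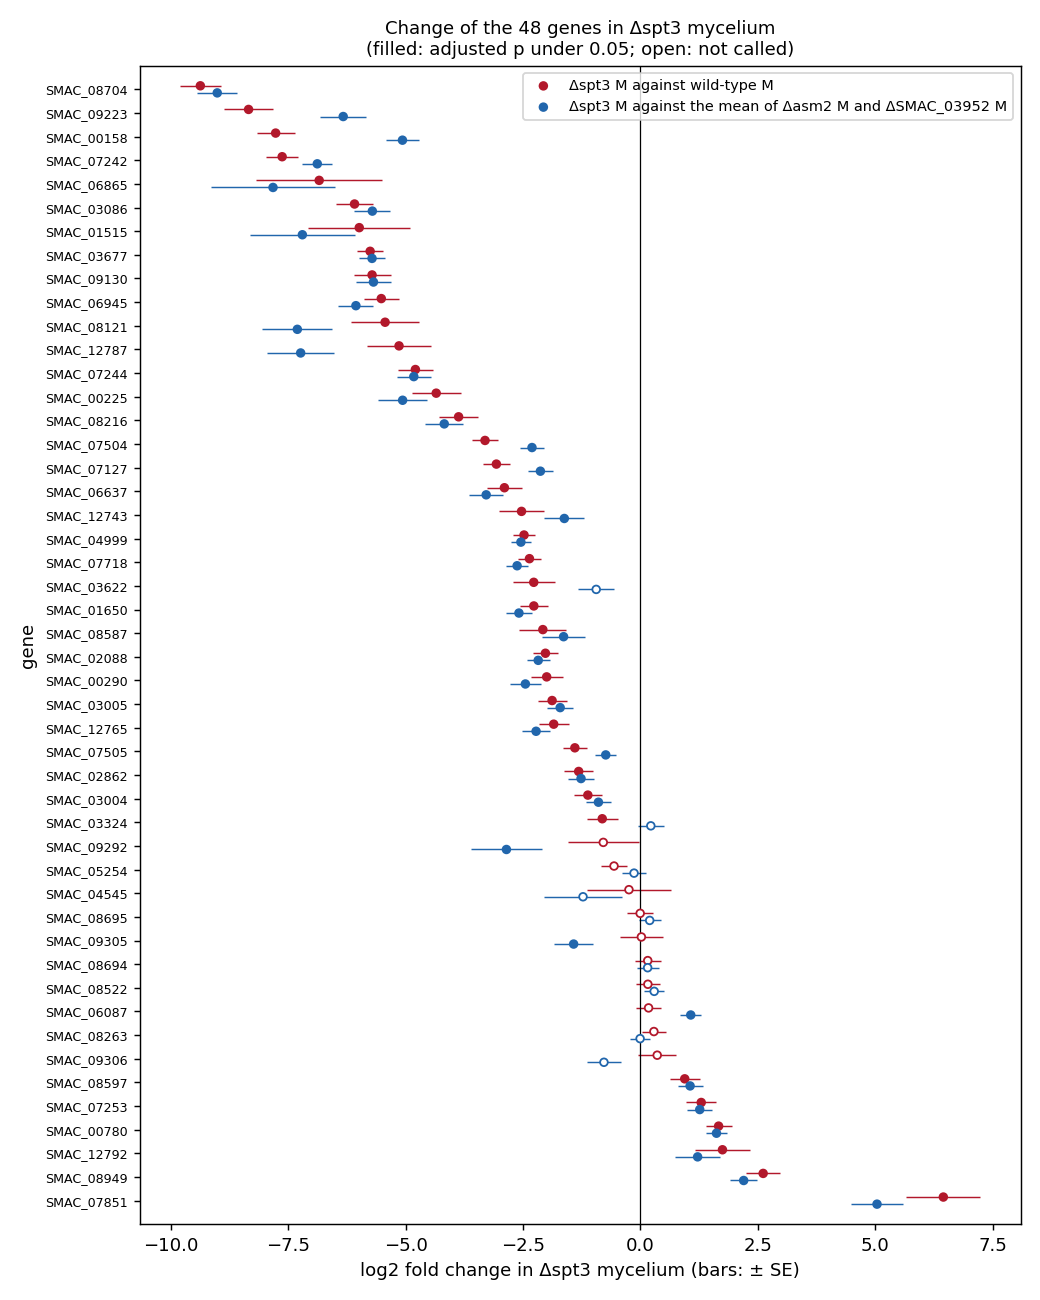
Log2 fold change of each of the 48 genes in Δspt3 mycelium against wild-type mycelium (red) and against the mean of Δasm2 and ΔSMAC_03952 mycelium (blue), with bars of 1 SE; filled points have an adjusted p under 0.05. Both sets of points run from below -9 for SMAC_08704 to above 5 for SMAC_07851, with 32 genes called lower in each.

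The comparison of Δspt3 mycelium with the mean of the Δasm2 and ΔSMAC_03952 mycelia does not use wild-type mycelium. It called 7 members higher and 32 lower, where 28% of all genes tested were called higher and 28.5% lower (56.4% in all), and the median log2 fold change of the members was -2.15, against 0.01 for all genes. It shares the Δspt3 libraries with the comparison above and is not independent of it. Its reference was not free of the rule either. The rule required Δasm2 and ΔSMAC_03952 mycelium to lie at least 4-fold above perithecia of the same strain. SMAC_08704 again had the strongest fall (-9.01, SE 0.42, adjusted p = 8.90e-09), and SMAC_07851 the strongest rise (5.04, SE 0.55, adjusted p = 8.34e-06).

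Some values moved with the choice of the other strains. SMAC_00158 fell by 5.07 on the log2 scale against the other mutants, less than against the wild type. SMAC_12787 had a log2 fold change of -7.23 (SE 0.72) against the other mutants and of -5.14 (SE 0.69) against the wild type. SMAC_06087, with 628 and 499 CPM in Δspt3, was called higher against the other mutants (1.07, SE 0.22, adjusted p = 0.00139), whereas its log2 fold change against the wild type was 0.17 (SE 0.27). SMAC_12792 stood at 1.22 (adjusted p = 0.0448, 0.0032 to 0.323 over the alternatives) and was not called in 8 of 13 alternatives.

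Set beside perithecia, Δspt3 mycelium did not take on one common level. For 12 members both Δspt3 libraries lay below all 6 perithecial libraries; these were SMAC_00158, SMAC_00225, SMAC_01515, SMAC_03086, SMAC_03677, SMAC_06945, SMAC_07242, SMAC_07244, SMAC_08704, SMAC_09130, SMAC_09223 and SMAC_12787. The same was true of 34.8% of the 7303 genes that could be placed in this way. For 7 further members the Δspt3 libraries were not above the highest perithecium, 7 lay with both libraries between perithecia and mycelia, 9 with both within the range of the other mycelia and 6 with both above it, where 22.2% of all these genes lay. The remaining 7 (SMAC_02862, SMAC_06087, SMAC_07504, SMAC_07505, SMAC_09305, SMAC_09306 and SMAC_12743) had their 2 libraries in different ranges. The share over all genes was computed only for the lowest and the highest class, and in both it was larger than the share of the members. The rule set the members' perithecia low against their mycelia, which it did not do for the other genes. These shares are therefore not directly comparable. For the other classes no such share is at hand. The classes were formed after the values were seen and are a description.

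SMAC_06945 shows the first class. It had 21.6 and 21.0 CPM in Δspt3 mycelium, while its perithecial levels were 137 and 183 CPM in Δasm2, 81.3 and 75.2 CPM in ΔSMAC_03952 and 124 and 188 CPM in the wild type. SMAC_03677 had 13.3 and 10.5 CPM in Δspt3 mycelium and 21.9 to 40.2 CPM in the 6 perithecial libraries. For SMAC_06945 and SMAC_03677 Δspt3 mycelium thus held less RNA than the tissue by whose low level they were chosen. This position was not confined to the members: 12 of 48 held it, and so did 34.8% of the 7303 genes placed. The shares are not directly comparable, because the rule set the members' perithecia at least 4-fold below mycelium of the same strain. The median log2 fold change of wild-type perithecia against mycelium was -3.73 for members and 0.005 for genes with at least 10 CPM. A member thus had to fall further to lie below perithecia. Against wild-type perithecia alone, the Δspt3 libraries were all lower for 13 members and all higher for 30. Of the genes with at least 10 CPM 41.7% were lower and 31.4% higher. The rule set the members' wild-type perithecia low, so these shares are not directly comparable either, and the 30 are a description.

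In Δasm2 mycelium most members did not pass the test against wild-type mycelium. The rule had a part in this, because it required at least 4-fold more in this mycelium than in Δasm2 perithecia. A gene that fell to the perithecial level there could not be a member. Δspt3 mycelium had no such requirement, so its counts of calls are not directly comparable. Against wild-type mycelium 3 members rose and 2 fell, 5 of 48. Of all genes tested 3.45% were called higher and 2.61% lower (6.06% in all). The members' median log2 fold change was 0.15. Not passing the test does not show an unchanged level: SMAC_04545, for example, had a log2 fold change of 1.65 with an SE of 0.91. The libraries did not overlap for 9 members lower and 11 higher in Δasm2, against 29.1% and 25.6% of the genes with at least 10 CPM. SMAC_00158 had 252 and 383 CPM in Δasm2 mycelium, against 1742 and 986 CPM in wild-type mycelium (log2 fold change -2.05, SE 0.31, adjusted p = 0.00243), and this call was kept in all 11 alternatives. SMAC_09223 had 27.7 and 61.6 CPM in Δasm2, against 126 and 124 CPM in the wild type (-1.45, SE 0.35, adjusted p = 0.0322).

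SMAC_12787 rose in Δasm2 mycelium to 559 and 212 CPM, against 27.4 and 109 CPM in wild-type mycelium (log2 fold change 2.55, SE 0.57, adjusted p = 0.0213). SMAC_08121 had 368 and 116 CPM in Δasm2, against 38.4 and 78.5 CPM in the wild type (2.11, SE 0.57, adjusted p = 0.0487). SMAC_02862 had 1717 and 1627 CPM in Δasm2, against 745 and 575 CPM in the wild type (1.40, SE 0.31, adjusted p = 0.0215). Only SMAC_00158 was still called without wild-type mycelium replicate 1 or without Δasm2 mycelium replicate 1; the adjusted p of the other 4 then lay between 0.106 and 0.623, and over all alternatives their largest values were 0.133 for SMAC_02862, 0.264 for SMAC_09223, 0.268 for SMAC_12787 and 0.623 for SMAC_08121. SMAC_08121 (adjusted p = 0.0717), SMAC_09223 (0.0927) and SMAC_02862 (0.118) were not called without wild-type mycelium replicate 2 either.

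In ΔSMAC_03952 mycelium, for which the rule set the same requirement against its own perithecia, 10 members fell and 1 rose. Of all genes tested 6.64% were called lower and 4.13% higher there (10.8% in all). The members' median log2 fold change was 0.02, so the falls were those of single genes and not of the whole group. The balance of directions varied with the setting. At an unadjusted p under 0.05, 12 members were lower and 7 higher. DESeq2 called 12 lower and 6 higher, and the fit on library totals called 11 lower and 0 higher. SMAC_00158 had 110 and 142 CPM in ΔSMAC_03952 mycelium, against 1742 and 986 CPM in wild-type mycelium (log2 fold change -3.35, SE 0.32, adjusted p = 3.02e-04). SMAC_09223 had 22.4 and 17.6 CPM in ΔSMAC_03952, against 126 and 124 CPM in the wild type (-2.58, SE 0.37, adjusted p = 0.00268). SMAC_07504 had 468 and 416 CPM in ΔSMAC_03952, against 1574 and 1415 CPM in the wild type (-1.69, SE 0.26, adjusted p = 0.0042). These 3 calls were kept in all 11 alternatives.

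The other members lower in ΔSMAC_03952 mycelium were SMAC_03622 (log2 fold change -2.29), SMAC_12743 (-1.67), SMAC_03324 (-1.58), SMAC_02862 (-1.50), SMAC_07127 (-1.27), SMAC_07242 (-1.25) and SMAC_07505 (-1.23). SMAC_08949 was higher, with 104 and 179 CPM in ΔSMAC_03952, against 56.3 and 75.3 CPM in the wild type (1.17, SE 0.35, adjusted p = 0.0479). Without wild-type mycelium replicate 1 the number called was 3, namely SMAC_00158, SMAC_09223 and SMAC_07504, so that SMAC_03324 was lost there as well, and without ΔSMAC_03952 mycelium replicate 1 it was 5. Each of SMAC_03622, SMAC_12743, SMAC_02862, SMAC_07127, SMAC_07242 and SMAC_07505 was not called without at least 1 wild-type or ΔSMAC_03952 mycelial library, with largest adjusted p-values of 0.0773, 0.132, 0.121, 0.0787, 0.062 and 0.0836 in this order. SMAC_08949 was not called without ΔSMAC_03952 mycelium replicate 2 (adjusted p = 0.245) or without either wild-type mycelium replicate (0.305 and 0.0783); over all its alternatives the adjusted p ran from 0.0169 to 0.305.

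The 3 deletion mycelia were each compared with the same pair of wild-type libraries, so a high or low wild-type value enters all 3 fold changes. Side by side, the log2 fold changes of SMAC_00158 were -7.77 in Δspt3, -2.05 in Δasm2 and -3.35 in ΔSMAC_03952. Those of SMAC_09223 were -8.34 in Δspt3, -1.45 in Δasm2 and -2.58 in ΔSMAC_03952. Those of SMAC_02862 were -1.32 in Δspt3, 1.40 in Δasm2 and -1.50 in ΔSMAC_03952, and its levels of 1717 and 1627 CPM in Δasm2 mycelium were above every other library. SMAC_08704, the strongest fall in Δspt3, had -0.14 in Δasm2 and -0.58 in ΔSMAC_03952, neither of which passed the test.

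In perithecia of the 2 deletion strains, members were called against wild-type perithecia about as often as all genes tested, or less often. The called members were higher in Δasm2 and lower in ΔSMAC_03952. In Δasm2 perithecia 6 members rose and 0 fell, where 5.04% of all genes tested were called higher and 6.73% lower (11.8% in all); 0 were lower at an unadjusted p under 0.05 or by DESeq2. The members' median log2 fold change was 0.39, and 39 of 48 lay above 0, against a median of 0.01 over all genes. The perithecial levels of all members are limited by the rule relative to mycelium of the same strain, not relative to each other.

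SMAC_02862 changed most in Δasm2 perithecia. It had 275 and 245 CPM there, against 38.9 and 60.4 CPM in wild-type perithecia (log2 fold change 2.37, SE 0.33, adjusted p = 5.47e-04), and the call was kept in all 11 alternatives. SMAC_12743 had 9.05 and 4.75 CPM in Δasm2 perithecia, against 2.04 and 1.49 CPM in wild-type perithecia (1.92, SE 0.53, adjusted p = 0.0341). The other rises were those of SMAC_03622 (1.72), SMAC_08949 (1.58), SMAC_03324 (1.32) and SMAC_08704 (1.23). Of the 6 calls 2 remained without wild-type perithecia replicate 1, where 3 members were called in all, 1 without replicate 2 and 1 without Δasm2 perithecia replicate 1; only SMAC_02862 was kept in every one of these, and the adjusted p of SMAC_12743 ran from 0.00221 to 0.214 over its alternatives.

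In ΔSMAC_03952 perithecia 7 members fell and 0 rose, where 11.2% of all genes tested were called lower and 6.24% higher (17.4% in all). At an unadjusted p under 0.05, 3 members were higher, and DESeq2 called 2 higher and 9 lower. The members' median log2 fold change was -0.42, against -0.01 over all genes, and 32 of 48 lay below 0. SMAC_07242 had 29.6 and 19.3 CPM in ΔSMAC_03952 perithecia, against 75.4 and 77.3 CPM in wild-type perithecia (log2 fold change -1.75, SE 0.26, adjusted p = 6.38e-04), a call kept in all 11 alternatives. SMAC_09223 had 1.88 and 1.5 CPM in ΔSMAC_03952 perithecia, against 5.60 and 9.07 CPM in wild-type perithecia (-2.22, SE 0.45, adjusted p = 0.00516).

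The other falls in ΔSMAC_03952 perithecia were those of SMAC_07127 (log2 fold change -1.44), SMAC_06087 (-1.39), SMAC_03004 (-1.31), SMAC_00158 (-1.29) and SMAC_06945 (-1.08). Without ΔSMAC_03952 perithecia replicate 1 the number called was 4, and without replicate 2 it was 1. SMAC_09223 had an adjusted p of 0.0797 without that second library, within 5.12e-05 to 0.0797 over its alternatives. SMAC_03004 was not called without wild-type perithecia replicate 1 (0.0995), nor SMAC_00158 without wild-type perithecia replicate 2 (0.105); their largest adjusted p-values over all alternatives were 0.124 and 0.196. Both perithecial comparisons use the same wild-type libraries.

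**Figure D4:**
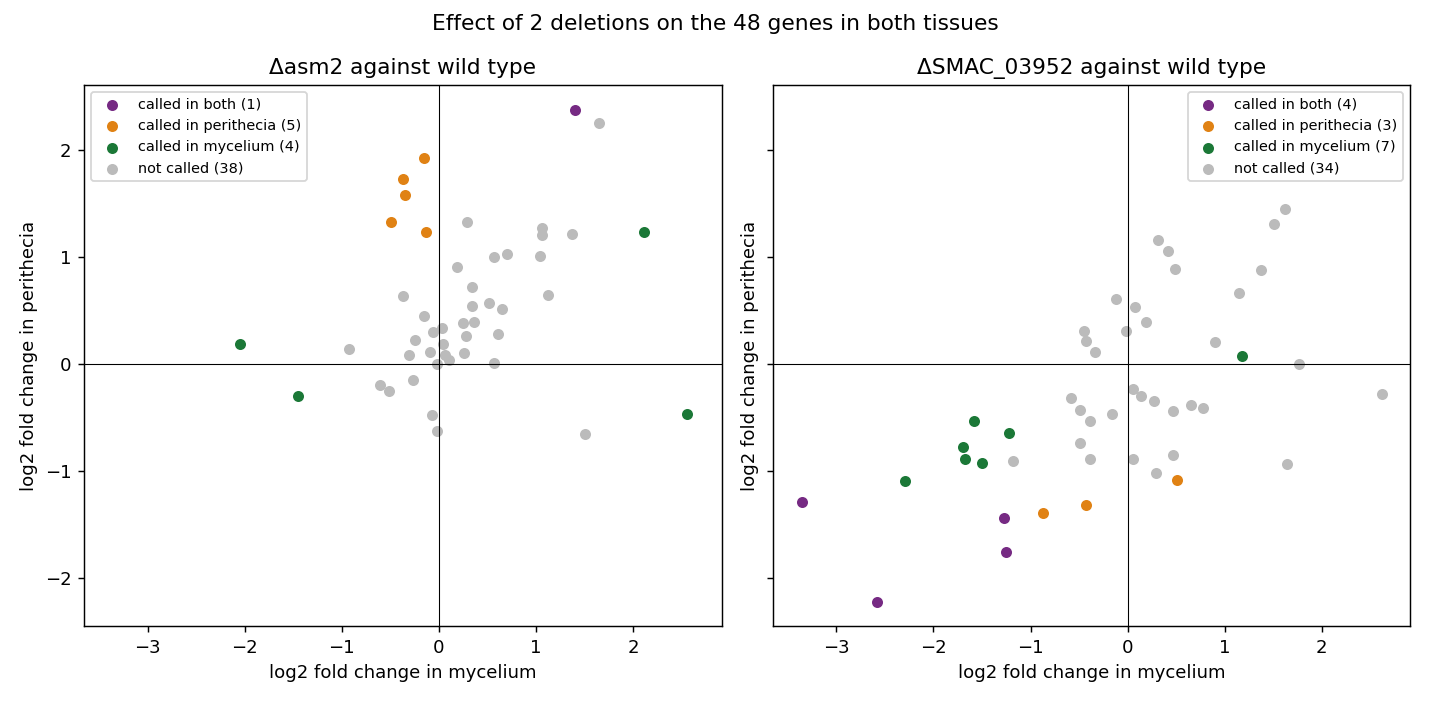
Log2 fold change of each of the 48 genes in mycelium (x axis) and in perithecia (y axis) for Δasm2 against the wild type (left) and ΔSMAC_03952 against the wild type (right); colours give the tissue in which the change had an adjusted p under 0.05. SMAC_02862 is the point called in both tissues for Δasm2, at 1.40 and 2.37, and most ΔSMAC_03952 points that were called lie below 0 on both axes.

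The 2 mutant perithecia were also compared with each other, a comparison chosen after the values above had been seen and free of wild-type libraries. In Δasm2 perithecia 12 members were higher than in ΔSMAC_03952 perithecia and 0 were lower, where 3.88% of all genes tested were called higher and 0.611% lower (4.5% in all); 0 were lower at an unadjusted p under 0.05 or by DESeq2. The libraries of both groups did not overlap for 35 members that were higher in Δasm2 and 5 that were lower, against 27.9% and 34.3% of the genes with at least 10 CPM. The members' median log2 fold change was 0.75, against 0.03 over all genes. Their choice required low levels in both groups, and the rule sets no limit on the difference between them.

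SMAC_02862 again differed most, with 275 and 245 CPM in Δasm2 perithecia, against 31.2 and 24.3 CPM in ΔSMAC_03952 perithecia (log2 fold change 3.29, SE 0.34, adjusted p = 2.54e-04). SMAC_07242 had 93.3 and 90.6 CPM in Δasm2 perithecia, against 29.6 and 19.3 CPM in ΔSMAC_03952 perithecia (1.98, SE 0.26, adjusted p = 9.00e-04). Both calls were kept in all 11 alternatives. SMAC_03622 had 85.7 and 51.2 CPM in Δasm2 perithecia, against 12.2 and 8.42 CPM in ΔSMAC_03952 perithecia (2.81, SE 0.47, adjusted p = 0.00469; 7.97e-08 to 0.115 over the alternatives), and was not called without ΔSMAC_03952 perithecia replicate 2. Without single libraries between 2 and 7 members were called, 2 of them without that replicate.

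The tissue difference of each deletion strain was set against that of the wild type in the same model, also after the values had been seen. The rule used the same libraries, so the calls for members are a description. Over all genes tested 1.8% were called for Δasm2 and 14.1% for ΔSMAC_03952; of the members 1 was called for Δasm2, SMAC_00158, and 2 for ΔSMAC_03952, SMAC_00158 and SMAC_06945. For SMAC_00158 both deletion strains lay below the wild type in mycelium; in perithecia Δasm2 overlapped the wild type and ΔSMAC_03952 lay below it. None of these calls was kept without every single library, and their values are given among the results for a closer look.

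Some of the members are neighbours in the genome. In the gene order of the RefSeq annotation ASM3387043v1, in which all 48 were found, 10 members form 5 pairs. Those of 4 pairs are directly adjacent (SMAC_03004 and SMAC_03005, SMAC_07504 and SMAC_07505, SMAC_08694 and SMAC_08695, SMAC_09305 and SMAC_09306), and SMAC_07242 and SMAC_07244 are separated by SMAC_07243. The gene in between was weakly transcribed, with 7.03 and 6.97 CPM in wild-type mycelium, which is under the minimum of 10 CPM. The sources used here do not say whether reads were counted by strand or whether adjacent transcripts overlap, so values of neighbours may not be independent.

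The ratio between the members of a pair differed between tissues in some pairs and not in others. The ratio of SMAC_07504 to SMAC_07505 ran from 3.18 to 3.64 in perithecia, from 1.87 to 1.99 in Δspt3 mycelium and from 5.01 to 7.76 in the other mycelia. That of SMAC_09305 to SMAC_09306 ran from 1.00 to 2.01 in perithecia, from 2.85 to 2.90 in Δspt3 mycelium and from 3.53 to 4.74 in the other mycelia. In both pairs the more abundant gene lost more of its level in perithecia than its neighbour did. The ratio of SMAC_03005 to SMAC_03004 ran from 1.61 to 3.21 in perithecia, from 2.46 to 2.62 in Δspt3 mycelium and from 3.83 to 5.15 in the other mycelia, so that perithecia and Δspt3 overlapped. For SMAC_08694 to SMAC_08695 (2.83 to 8.94 in perithecia, 4.30 to 5.42 in Δspt3 and 4.24 to 5.92 in the other mycelia) all ranges overlapped. For SMAC_07242 to SMAC_07244 the ratio was 0.438 to 2.63 in perithecia and 0.647 to 2.52 in the other mycelia, and 0.274 to 0.316 in Δspt3.

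In Δspt3 against wild-type mycelium the pairs differed from each other. SMAC_07242 and SMAC_07244 both fell strongly (log2 fold change -7.63 and -4.79), SMAC_07504 fell by 3.31 and SMAC_07505 by 1.40, and SMAC_03005 fell by 1.88 and SMAC_03004 by 1.12. SMAC_03004 was not called without Δspt3 mycelium replicate 2 (adjusted p = 0.0557, the largest over its alternatives, from 3.08e-04). The pairs SMAC_09305 and SMAC_09306 (0.02 and 0.36) and SMAC_08694 and SMAC_08695 (0.16 and -0.01) did not pass the test.

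The genes next to the members shared the tissue difference only in part. Of 77 tested genes that lie directly beside a member and are not members, 22 (28.6%) were called lower in perithecia in Δasm2, 17 (22.1%) in ΔSMAC_03952 and 23 (29.9%) in the wild type. The shares over all genes were 13.3%, 19.4% and 13.3%, as given above. The median log2 fold change of the neighbours was -0.23 in Δasm2, -0.28 in ΔSMAC_03952 and -0.10 in the wild type.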

How the data were processed

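Raw counts per gene model, mRNA lengths and the authors' own comparisons came as 1 table of 10014 rows, of which 145 are second transcripts with no counts, leaving 9869 gene models. The sources used here name no aligner, counting program, strand setting or genome build. The submitters' processing notes name DESeq2 without a version. The counts were deposited by the authors without normalization, per the file headers. The authors' deposited table also holds a mean normalized signal, log2 fold changes and adjusted p-values, per the file headers. These entered no test. For Δspt3 against wild-type mycelium the authors' deposited table gives 6 members higher and 32 lower.

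CPM values are counts over library totals. Tests used edgeR 4.0.16 in R 4.3.3: filterByExpr over 7 groups (9499 genes kept, 370 left out), TMM factors, 1 mean per group over all 14 libraries, the quasi-likelihood test, and Benjamini-Hochberg adjustment within each comparison, with a threshold of 0.05. The common biological coefficient of variation was 0.237. On simulated counts made for Δspt3 against wild-type mycelium, over 9403 genes, 96% of 4-fold and 36% of 2-fold changes were recovered. The simulation changed few genes, none of them at very low levels, and its spread followed the level of a gene only. In the data 59.3% of genes were called in this comparison, so these rates need not hold for the members. Alternatives were DESeq2 1.42.0, its size factors, library totals, no filter, a length correction, only the libraries compared, the replicate number as a block, and each library left out. The chi-square per gene between replicates was 12 to 128, more than sampling noise gives. With 2 libraries per group, intervals rest on the spread shared over groups.

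The members and lists were chosen with earlier results of these data known. Named genes were the 8 most abundant members, the 6 with the strongest tissue difference in their weakest strain, the largest changes of each direction (4 for Δspt3 mycelium, 2 for the other strain comparisons) among those with replicates that do not overlap, the 3 genes either side of the limit and members that neighbour each other; others were named after their values were seen. Planned groupings by product, protein signature and promoter motif need tables not used here. The annotation ASM3387043v1 matched 9531 gene models by locus tag and served for gene order only.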

Additional observations from a re-analysis of the deposited data

Results flagged for a closer look

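In 3 cases the difference between the tissues itself differed between a deletion strain and the wild type in a test of that difference (edgeR's quasi-likelihood test). The rule used the same libraries and limits the tissue difference in each strain separately. These comparisons were added after the values had been seen. The SEs and adjusted p-values below therefore describe the fit and are no support for a difference among the members. For SMAC_00158 the perithecia-to-mycelium change was less negative in Δasm2 than in the wild type by 2.23 on the log2 scale (SE 0.43, adjusted p = 0.0257; 1.41e-04 to 0.126 over the alternatives), with 1.8% of all genes called in this comparison. Its perithecia had 23.2 and 26.4 CPM in Δasm2, against 16.5 and 26.6 CPM in the wild type, and its mycelium had 252 and 383 CPM in Δasm2, against 1742 and 986 CPM in the wild type. The groups overlapped in perithecia and were apart in mycelium. The call was lost without wild-type mycelium replicate 1, wild-type perithecia replicate 1, Δasm2 mycelium replicate 1 or either Δasm2 perithecia library (adjusted p 0.0901 to 0.126).

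For the same gene the change was less negative in ΔSMAC_03952 than in the wild type by 2.07 (SE 0.44, adjusted p = 0.0128; 2.33e-04 to 0.059 over the alternatives), where 14.1% of all genes were called. It had 10.8 and 7.96 CPM in ΔSMAC_03952 perithecia and 110 and 142 CPM in ΔSMAC_03952 mycelium, and the same wild-type libraries enter both differences. It was not called without wild-type mycelium replicate 1, wild-type perithecia replicate 1 or ΔSMAC_03952 perithecia replicate 1 (adjusted p 0.058 to 0.059). SMAC_06945 moved the other way in ΔSMAC_03952, with a difference of -1.59 (SE 0.44, adjusted p = 0.0339). It had 81.3 and 75.2 CPM in ΔSMAC_03952 perithecia, against 124 and 188 CPM in wild-type perithecia, and 1713 and 1334 CPM in ΔSMAC_03952 mycelium, against 871 and 1350 CPM in wild-type mycelium, so its groups were apart in perithecia and overlapped in mycelium. Without wild-type mycelium replicate 1, wild-type perithecia replicate 1 or ΔSMAC_03952 perithecia replicate 1, 0 members were called in this comparison.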

How the results depend on the processing

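Single genes were followed over the alternatives only where the fixed choices above named them. For these genes no change that passed the test took the other sign under any alternative run. Of their changes that did not pass it, 54 took the other sign at least once. Genes named for other reasons, such as SMAC_03324, SMAC_06087, SMAC_06945, SMAC_07253 and SMAC_08597, were not followed in this way. The counts for single genes below cover the same list. The number of members called in Δspt3 against wild-type mycelium, 38, was 37 to 38 under other settings and 35 to 37 without single libraries, and that against the mean of the other mutants, 39, was 38 to 41 and 34 to 40. Among single genes 2876 values kept their side of the threshold, 65 passed it newly and 111 no longer passed it. The smaller counts depended on the fit. With DESeq2, 18 members were called in ΔSMAC_03952 against wild-type mycelium and 11 in perithecia. With only the libraries compared, 2 were called in Δasm2 and 7 in ΔSMAC_03952 mycelium, 11 in Δasm2 and 11 in ΔSMAC_03952 perithecia, and 23 between the mutant perithecia; these fits estimate the spread from fewer libraries. For the tissue change in Δasm2 against the wild type, 2 members were called on library totals, 4 with the length trend removed, 6 by DESeq2 and 3 with only the libraries compared; for that in ΔSMAC_03952, 4 with the length trend removed and 5 by DESeq2. Where not stated otherwise, the cause was not tested.

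Without single libraries the number called ran from 1 to 7 for Δasm2 mycelium, 3 to 10 for ΔSMAC_03952 mycelium, 1 to 4 for Δasm2 perithecia, 1 to 7 for ΔSMAC_03952 perithecia, 2 to 7 between the mutant perithecia, and 0 to 2 and 0 to 6 for the tissue changes in Δasm2 and ΔSMAC_03952. The rule itself gave 46 to 67 members without single libraries, 67 of them without wild-type mycelium replicate 1. It gave 83 members at a limit of 3-fold, 10 at 8-fold and 98 on the means of both tissues.

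The labels give groups the same replicate numbers but do not say that a number marks shared material, and deviations of same-numbered libraries correlated between -0.33 and 0.38 over 21 pairs of groups. With the replicate number as a block, 38, 4, 12, 6 and 9 members were called for Δspt3, Δasm2 and ΔSMAC_03952 mycelium and Δasm2 and ΔSMAC_03952 perithecia against the wild type, 39 for Δspt3 against the other mutants, 12 between the mutant perithecia, and 1 and 2 for the tissue changes. On library totals the median of all genes moved by -0.18 (log2) for Δspt3 against wild-type mycelium and by 0.17 for the tissue change in ΔSMAC_03952. The depth limits members such as SMAC_08704 and SMAC_09223 in Δspt3, whose levels rest on 15 and 10 counts.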
